A study of Mus musculus with 6 samples.

Results

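The heat shock genes asked about here were the transcription factor Hsf1 and 9 chaperone and cochaperone genes of the heat shock response: Hspa1a, Hspa1b, Hspa8, Hsph1, Hsp90aa1, Hspb1, Hspe1, Dnajb1 and Bag3. The 10 genes, and the related lists further below, were chosen by name with earlier results of these data known. Each was read from the brightest array probeset that carried its symbol and no other, a probeset being the group of probes summarised into 1 value. That rule found 9 of the 10 genes, and all 9 were among the 14020 genes tested. Hsf1 had no such probeset and is not analysed here, so the values of the 9 measured genes are all of chaperones or their cofactors.

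Heat shock proteins bind unfolded or partly folded proteins and help them to fold, or hand them on for degradation. In unstressed cells the factor Hsf1 is kept inactive, in part by the chaperones themselves, and when unfolded proteins draw the chaperones away it binds heat shock elements in promoters and switches the genes on. Hspa1a and Hspa1b encode the stress-inducible Hsp70, whereas Hspa8 encodes the constitutive form. In the mouse embryo the inducible Hsp70 genes are also known for being transcribed, without heat, among the earliest embryonic genes.

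Mouse Gene ST arrays, 6 in all and 2 per group, measured RNA from 10 blastocysts of let7g-transgenic mice each; the values are log2 signals. D4-act-7g were activated blastocysts of day 4, Dor-7g were blastocysts dormant in vivo on day 7, and DOX-7g were day-7 blastocysts whose dormancy was brought about in vitro with DOX, which induces let-7, a microRNA family whose part in embryonic diapause the study addressed. All 3 groups carried the let-7g transgene, whose promoter the labels do not name, and no array of embryos without it was used here. Day, dormancy, culture, DOX exposure and let-7 induction all separate DOX-7g from D4-act-7g, and day and dormancy separate Dor-7g from it. Culture, DOX exposure and let-7 induction separate DOX-7g from Dor-7g. These cannot be told apart. No label says that replicate arrays were separate pools or litters, and p-values then measure only the spread between these arrays. Fewer cells of a type and less RNA per cell cannot be told apart in such pools either.

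Dor-7g replicate 1 stood apart from the other arrays. Its median log2 signal was 4.87, against 4.62 to 4.67 on the others, and its highest correlation with another array was 0.919 across probesets, against 0.950 to 0.978 for the others. Across all genes the 2 Dor-7g arrays differed by a median of 0.365 log2 units, against 0.172 in D4-act-7g and 0.204 in DOX-7g. For the 9 chaperone genes these medians were 0.414, 0.161 and 0.128. Of 15 markers of the blastocyst lineages, 12 or 13 were at or above the array median on every array, while Sox2 and Esrrb, of the pluripotent lineage, were below it on all 6.

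Promoter sequences from RefSeq (GRCm38.p6) were matched by symbol for 7 of the 10 genes and are shown for those whose values or heat shock elements are set side by side below. A heat shock element is built from GAA and its complement TTC in alternation. The 250 bases before each start were searched on both strands for 2 alternating units (GAANNTTC or TTCNNGAA) and for the same pattern extended by another unit to 3, which contains the former. In the sequences below, written 5′ to 3′ on the gene's own strand, the capitals mark every 2-unit or 3-unit match.
Hspa1a, chr17:34972157-34972406, minus strand: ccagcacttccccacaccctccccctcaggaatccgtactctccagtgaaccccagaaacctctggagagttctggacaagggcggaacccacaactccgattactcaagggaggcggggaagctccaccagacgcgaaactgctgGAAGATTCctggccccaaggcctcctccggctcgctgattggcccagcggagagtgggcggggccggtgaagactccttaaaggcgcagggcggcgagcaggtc
Hspa1b, chr17:34959239-34959488, minus strand: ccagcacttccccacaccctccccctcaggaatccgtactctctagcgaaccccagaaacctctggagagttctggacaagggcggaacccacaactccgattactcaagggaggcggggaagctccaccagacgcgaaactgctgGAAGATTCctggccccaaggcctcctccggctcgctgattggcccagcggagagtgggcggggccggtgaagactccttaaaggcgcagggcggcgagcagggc
Hspb1, chr5:135887669-135887918, plus strand: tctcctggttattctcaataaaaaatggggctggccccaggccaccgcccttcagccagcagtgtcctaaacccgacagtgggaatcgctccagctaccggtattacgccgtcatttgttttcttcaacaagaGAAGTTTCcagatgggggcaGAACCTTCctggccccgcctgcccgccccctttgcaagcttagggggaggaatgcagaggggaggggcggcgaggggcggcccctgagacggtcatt
Hspe1, chr1:55087898-55088147, plus strand: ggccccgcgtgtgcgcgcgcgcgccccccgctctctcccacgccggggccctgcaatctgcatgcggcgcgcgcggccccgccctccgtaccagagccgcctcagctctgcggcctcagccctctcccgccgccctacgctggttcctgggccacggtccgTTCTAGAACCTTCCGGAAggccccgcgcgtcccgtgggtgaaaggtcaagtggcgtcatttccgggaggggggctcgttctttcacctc
Hsph1, chr5:149636337-149636586, minus strand: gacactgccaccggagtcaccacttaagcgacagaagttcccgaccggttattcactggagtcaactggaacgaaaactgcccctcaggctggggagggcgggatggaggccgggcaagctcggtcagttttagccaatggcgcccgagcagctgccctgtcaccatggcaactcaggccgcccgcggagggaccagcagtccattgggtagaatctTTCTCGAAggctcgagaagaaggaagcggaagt

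Hspa1a and Hspa1b, which lie next to each other on chromosome 17, had nearly the same promoter: 247 of 250 positions were identical, and both held the same 2-unit element, GAAGATTC, from 104 to 97 bases before the start. Hspb1 held 2 such elements, GAAGTTTC and GAACCTTC. Hspe1 was the only one of the 7 genes with a 3-unit match, as 2 overlapping matches (TTCTAGAACCTTC and GAACCTTCCGGAA). Together they make 1 run of 4 alternating units, and 3 units was the longest pattern searched. Hsph1 held 1 element, TTCTCGAA, from 33 to 26 bases before the start shown and from 54 to 47 before another annotated start. No match was found in the windows of Dnajb1 and Bag3. In all, 5 of the 7 genes held a 2-unit element, against 14.5% of the 27025 genes with a promoter in the table, and 1 of the 7 a 3-unit element, against 0.514%. The promoter motif CCAAT (either strand) was present in 4 of the 7, against 37.5%, and TATAAA in none, against 14.3%. The near-identical promoters of Hspa1a and Hspa1b enter these counts as 2 genes. All were chosen as heat shock genes, so a share of heat shock elements above that of all genes is no independent result. A match to these letters is a description of the sequence and was not tied to binding here.

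The inducible Hsp70 genes had the widest differences between the groups. Hspa1b stood at 8.48 and 9.18 on the D4-act-7g arrays, 5.71 and 6.98 on the Dor-7g arrays, and 11.21 and 11.995 on the DOX-7g arrays. No 2 groups overlapped: both Dor-7g arrays were lowest and both DOX-7g arrays highest. Hspa1b rose from 6.35 ± 0.89 in Dor-7g to 11.60 ± 0.56 in DOX-7g (SD, n = 2 each), a difference of 5.26 ± 0.51 (SE; 95% interval 4.00 to 6.51; limma, adjusted p = 0.011 over all genes), or 38.2-fold. It was the only one of the 9 genes to pass the threshold of 0.05 in any of the 3 comparisons. The call was lost without DOX-7g replicate 1 (5.65, adjusted p = 0.0511) and without DOX-7g replicate 2 (4.86, adjusted p = 0.0802). It held without Dor-7g replicate 1, where the difference was 4.62.

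Against the day-4 group, the differences of Hspa1b had opposite signs in the day-7 groups. They were -2.48 ± 0.51 in Dor-7g (limma, adjusted p = 0.114) and 2.77 ± 0.51 in DOX-7g (adjusted p = 0.1), and neither passed, although their 95% intervals (-3.74 to -1.23, and 1.52 to 4.03) lay on 1 side of 0. Both comparisons use the same D4-act-7g arrays. The difference in Dor-7g passed without Dor-7g replicate 2 (-3.11, adjusted p = 0.0235), and that in DOX-7g passed without either Dor-7g array (2.77, adjusted p = 0.042), which enter this comparison through the estimate of the spread alone, and with array weights (adjusted p = 0.0211).

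Hspa1a, the adjacent copy with the near-identical promoter shown above, stood at 5.12 and 6.09 in D4-act-7g, at 5.45 and 5.15 in Dor-7g, and at 9.20 and 12.14 in DOX-7g. Both DOX-7g arrays were above all 4 others, and the D4-act-7g and Dor-7g arrays overlapped. The DOX-7g mean was 5.07 ± 0.92 above D4-act-7g (SE; 95% interval 2.79 to 7.35; limma, adjusted p = 0.0986) and 5.37 ± 0.92 above Dor-7g (3.09 to 7.65; adjusted p = 0.0864), so neither passed. The 2 DOX-7g arrays differed by 2.93 log2 units, the widest gap of any of the 9 genes within a group. Without DOX-7g replicate 1 both differences passed (6.54 and 6.84, adjusted p = 0.0188 and 0.0129), and without replicate 2 they were 3.60 and 3.90 and did not. Against D4-act-7g, Dor-7g was at -0.30 ± 0.92 (adjusted p = 0.898), with an interval of -2.58 to 1.98 that includes changes as large as that of Hspa1b in the same comparison. Another probeset, annotated to both genes at once, was dim, at 3.64 and 3.45 in D4-act-7g, at 4.12 and 3.42 in Dor-7g, and at 3.88 and 5.31 in DOX-7g. Its highest value fell on DOX-7g replicate 2, the array where Hspa1a was highest too, and the only one where it reached the array median. The copies are nearly identical, so which of them a probeset measured is uncertain.

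**Figure D1:**
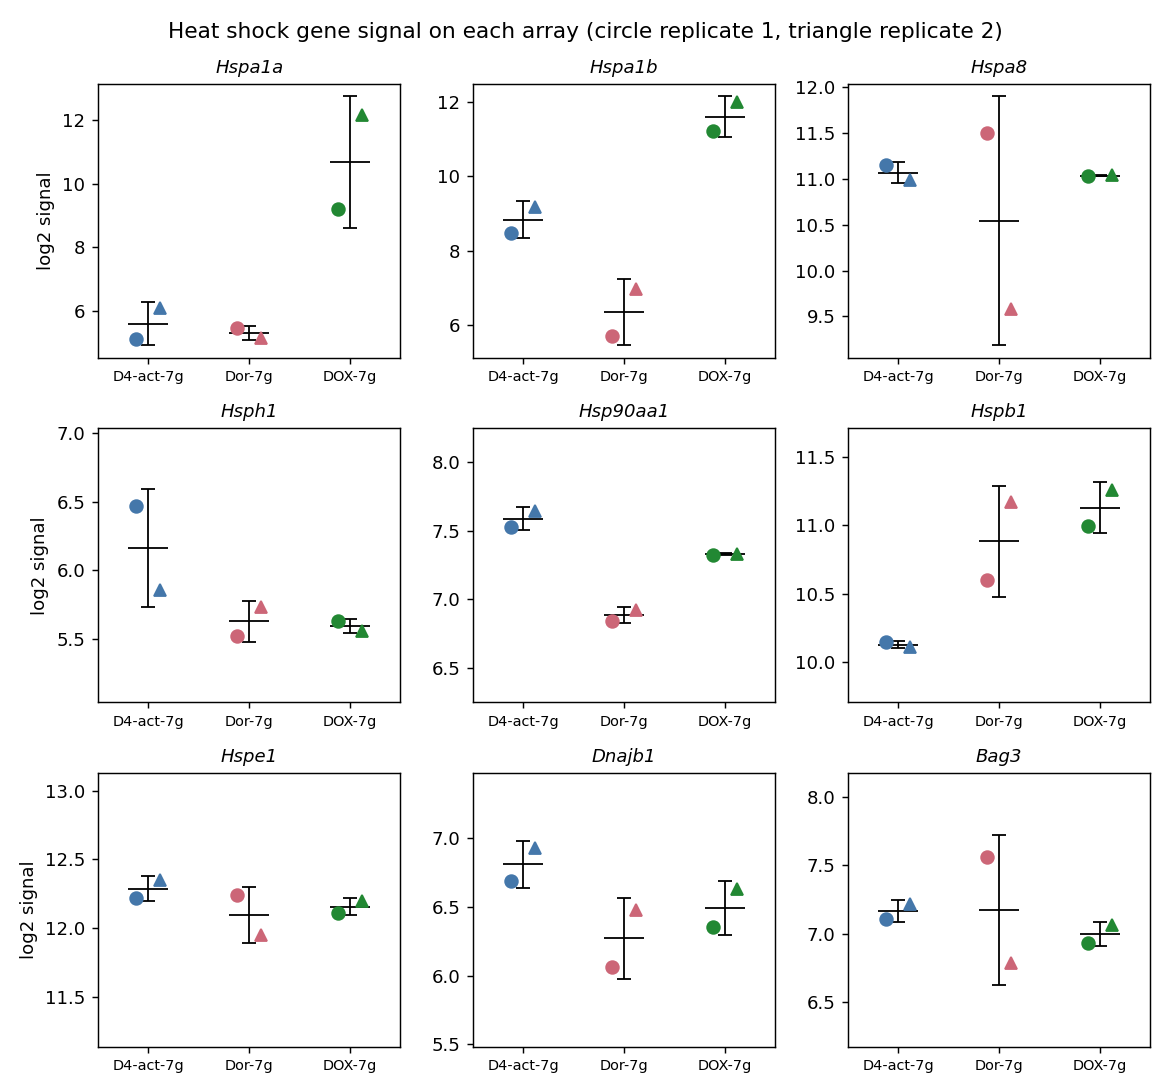
Log2 signal (vertical axis, a separate range for each gene) of the 9 heat shock genes on the 6 arrays, by group, with replicate 1 as a circle, replicate 2 as a triangle, and the group mean and SD (n = 2) in black. Hspa1b lies between 5.71 and 6.98 in Dor-7g and between 11.21 and 11.995 in DOX-7g, while Hspe1 stays within 11.95 to 12.35 on all 6 arrays.

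Some markers of blood cells also differed in DOX-7g. Of the 7 blood and immune markers with a probeset, 5 were at or above the array median on both DOX-7g arrays, where 1 or 2 were so in D4-act-7g and 3 on each Dor-7g array. Their summed linear signal was 2220 to 3089 in DOX-7g, 358 to 762 in D4-act-7g and 356 to 889 in Dor-7g. The brightest marker weighs most in this sum. It was S100a8 on both DOX-7g arrays and Cd68 on both D4-act-7g arrays, so the sums compare different genes. Of the 5 tested, 4 had higher means in DOX-7g and 1 a lower mean, both against D4-act-7g and against Dor-7g. Of all genes, 42% and 37.1% had higher means there. Of the 4, S100a8, S100a9 and Ly6g were below the array median on both D4-act-7g arrays and were tested only through day-7 arrays. The filter favoured their direction against D4-act-7g, and that of Ly6g against Dor-7g, so the count of means is no support. Of the 5, 2 passed as higher in DOX-7g against D4-act-7g (0.956% of all genes passed), 2 in DOX-7g against Dor-7g, the comparison of the Hspa1b call (1.16%), and 1 in Dor-7g against D4-act-7g (0.984%). S100a8 had the largest difference, at 3.28 and 3.16 in D4-act-7g, at 2.81 and 7.18 in Dor-7g, and at 10.91 and 10.12 in DOX-7g. It was below the array median on both D4-act-7g arrays and on Dor-7g replicate 1. S100a9, a neutrophil protein, passed in all 3 comparisons, at 4.49 and 4.5999 in D4-act-7g, at 7.10 and 6.41 in Dor-7g, and at 9.55 on both DOX-7g arrays. It was below the array median on both D4-act-7g arrays and was tested only through the day-7 arrays. Its calls against D4-act-7g are therefore no support. Ly6g, also of neutrophils, reached the array median on the DOX-7g arrays alone and was tested only through them, so its calls are no support. The macrophage marker Cd68 had lower means in DOX-7g, at 7.41 and 6.87 there against 8.04 and 9.34 in D4-act-7g (limma, adjusted p = 0.594). The leukocyte markers Ptprc and Itgam were below the array median on all 6 arrays. The part of such cells in the Hspa1a and Hspa1b values was not tested.

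Hspa8, the constitutive Hsp70, stood at 11.14 and 10.98 in D4-act-7g, at 11.50 and 9.58 in Dor-7g, and at 11.03 and 11.04 in DOX-7g. The 2 Dor-7g arrays were the highest and the lowest of all 6, 1.92 log2 units apart, with the other 2 groups between them. No comparison passed: the differences were -0.52 ± 0.59 in Dor-7g and -0.03 ± 0.59 in DOX-7g against D4-act-7g (SE; limma, adjusted p = 0.71 and 0.995), and 0.49 ± 0.59 between DOX-7g and Dor-7g (adjusted p = 0.737). The sign rested on which Dor-7g array was used. Against D4-act-7g it was -1.48 without replicate 1 (adjusted p = 0.0381) and 0.44 without replicate 2 (adjusted p = 0.177), and DOX-7g against Dor-7g was 1.45 (adjusted p = 0.0389) and -0.47 (adjusted p = 0.165).

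Hspa8 has 4 probesets of its own, and they did not show the same pattern. The second brightest differed from the brightest by at most 0.0107 on any array. Probeset 3 was at 8.02 and 8.14 in D4-act-7g, at 7.52 and 7.31 in Dor-7g, and at 7.52 and 7.71 in DOX-7g, so both day-7 groups were below day 4 without overlap. Probeset 4 was at 6.74 and 6.96, 7.52 and 6.59, and 6.76 and 6.77, again highest on Dor-7g replicate 1 and lowest on Dor-7g replicate 2. A further probeset, annotated to Hspa8 together with the small nucleolar RNA Snord14e, ranged from 5.96 on DOX-7g replicate 1 to 11.89 on Dor-7g replicate 1. Hspa8 is known for its many near-identical pseudogenes, so which transcript each probeset measured is uncertain.

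**Figure D2:**
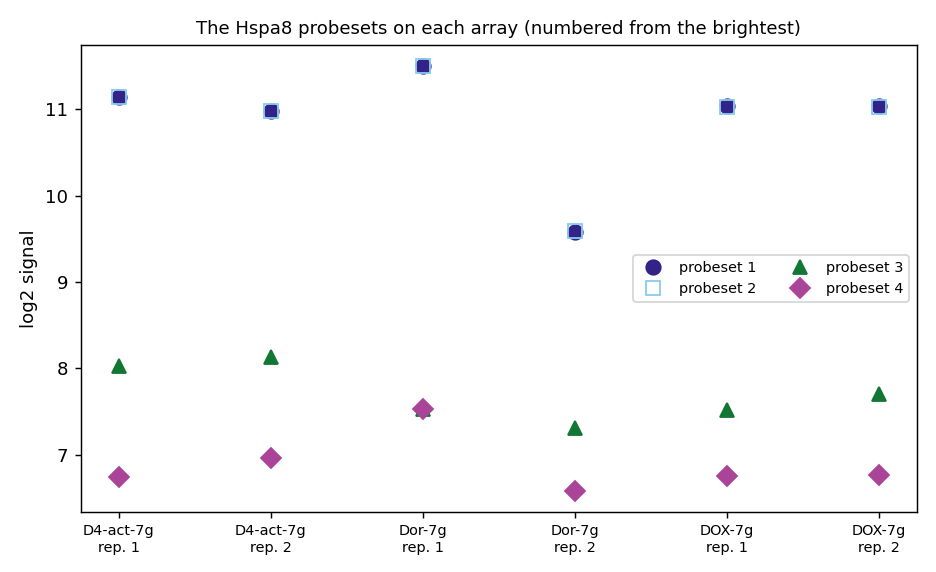
Log2 signal (vertical axis) of the 4 probesets annotated to Hspa8 alone, numbered from the brightest, on each of the 6 arrays (horizontal axis). Probesets 1 and 2 coincide and drop from 11.50 on Dor-7g replicate 1 to 9.58 on Dor-7g replicate 2, whereas probeset 3 is at 7.52 and 7.31 there.

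Hsph1, an Hsp110 protein that exchanges nucleotide on Hsp70, stood at 6.47 and 5.86 in D4-act-7g, at 5.52 and 5.74 in Dor-7g, and at 5.63 and 5.56 in DOX-7g. All 4 day-7 arrays were below both day-4 arrays, and the day-7 groups overlapped each other. The differences from D4-act-7g were -0.53 ± 0.25 in Dor-7g and -0.57 ± 0.25 in DOX-7g (SE; limma, adjusted p = 0.405 and 0.502), with intervals of -1.15 to 0.08 and -1.18 to 0.05. Much of each rested on D4-act-7g replicate 1, without which they were -0.23 and -0.26.

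Dnajb1, the J-domain cochaperone that delivers substrates to Hsp70 and starts its ATPase cycle, was at 6.69 and 6.93 in D4-act-7g, at 6.06 and 6.48 in Dor-7g, and at 6.35 and 6.63 in DOX-7g. Both day-7 groups lay below day 4 without overlap. The differences were -0.54 ± 0.23 and -0.32 ± 0.23 (SE; limma, adjusted p = 0.37 and 0.751), and neither passed. Bag3, an Hsp70 cofactor that links chaperoned cargo to autophagy, was at 7.11 and 7.22 in D4-act-7g, at 7.56 and 6.79 in Dor-7g, and at 6.94 and 7.06 in DOX-7g. Its Dor-7g arrays lay on either side of the other 4, as those of Hspa8 did. Its differences from D4-act-7g were 0.01 ± 0.28 in Dor-7g, with an interval of -0.68 to 0.71, and -0.16 ± 0.28 in DOX-7g, with an interval of -0.86 to 0.53 (limma, adjusted p = 0.988 and 0.94).

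Hsp90aa1, the inducible cytosolic Hsp90, had groups that separated by small steps with close replicates. It stood at 7.53 and 7.65 in D4-act-7g, at 6.84 and 6.92 in Dor-7g, and at 7.32 and 7.33 in DOX-7g. The order was D4-act-7g, DOX-7g, Dor-7g, and no 2 groups overlapped. Dor-7g differed from D4-act-7g by -0.71 ± 0.17 (SE; 95% interval -1.11 to -0.30; limma, adjusted p = 0.151) and DOX-7g by -0.26 ± 0.17 (-0.67 to 0.15; adjusted p = 0.698), and DOX-7g differed from Dor-7g by 0.44 ± 0.17 (0.04 to 0.85; adjusted p = 0.406). None passed. Hspa1b and Hsp90aa1 were the 2 of the 9 genes with no overlap between any 2 groups, a share to be read against 13.7% of all genes.

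Hspb1, the small heat shock protein Hsp27 that holds unfolded proteins without ATP, stood at 10.15 and 10.11 in D4-act-7g, at 10.60 and 11.17 in Dor-7g, and at 11.00 and 11.26 in DOX-7g. All 4 day-7 arrays were above both day-4 arrays, which makes Hspb1 the one of the 9 genes that was above day 4 without overlap in both day-7 groups. The differences were 0.75 ± 0.24 in Dor-7g (SE; 95% interval 0.15 to 1.36; limma, adjusted p = 0.25) and 1.00 ± 0.24 in DOX-7g (0.40 to 1.60; adjusted p = 0.193). Neither passed, and the second did with array weights (adjusted p = 0.0388). A dim second probeset was below the array median on every array. Means of uterine epithelium markers were higher too. The 7 that were tested all had means above D4-act-7g in both day-7 groups, with none past the threshold. Among all genes, higher means made up 56.7% for Dor-7g and 42% for DOX-7g. The summed signal of the 8 measured was 398 to 406 for D4-act-7g, 490 to 624 for Dor-7g and 492 to 591 for DOX-7g. Krt7 was the brightest of the 8 on all 4 day-7 arrays and weighs most in those sums. It stood at 6.92 and 6.69 on day 4, at 7.81 and 7.31 for Dor-7g, and at 7.27 and 7.76 for DOX-7g. The 624 fell on Dor-7g replicate 1, the array with the highest median (4.87). For the 8 measured stroma markers the summed signal was 290 to 305, 402 to 954 and 291 to 323. The 954 came from Dor-7g replicate 2, where Dcn was at 9.29 against 3.67 to 4.22 elsewhere. The part of uterine cells in the Hspb1 values was not tested.

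Hspe1, the mitochondrial Hsp10 that caps the Hsp60 chaperonin, was the steadiest of the 9 genes. It stood at 12.22 and 12.35 in D4-act-7g, at 12.24 and 11.95 in Dor-7g, and at 12.11 and 12.20 in DOX-7g, with the Dor-7g arrays overlapping both other groups. Its promoter holds the longest heat shock element of those shown. Its differences were -0.19 ± 0.19 in Dor-7g and -0.13 ± 0.19 in DOX-7g against D4-act-7g and 0.06 ± 0.19 between the day-7 groups (SE; limma, adjusted p = 0.672, 0.921 and 0.904). The 95% intervals, -0.65 to 0.27, -0.59 to 0.33 and -0.40 to 0.52, contain no difference as large as 1 log2 unit.

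The comparison of Dor-7g with D4-act-7g asks how the chaperone genes differ between embryos dormant in vivo and activated embryos. By limma's adjusted p at 0.05 none of the 9 genes was called, against 0.984% of all 14020 genes (0.243% higher and 0.742% lower), and 3 of the 9 had an unadjusted p at or under 0.05 (Hspa1b, Hsp90aa1 and Hspb1), against 14.3% of all genes. Group means were lower in Dor-7g for 7 of the 9 and higher for 2, against 43.3% and 56.7% of all genes. Arrays were lower without overlap for 4 (Hspa1b, Hsph1, Hsp90aa1 and Dnajb1), against 21.5%, and higher without overlap for 1 (Hspb1), against 24.3%. The median difference of the 9 genes was -0.52, which is the value of Hspa8, beside 0.06 over all genes. It was -0.15 without Dor-7g replicate 2 and -0.43 without replicate 1, so neither Dor-7g array alone gave a median of that size.

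The same was asked of DOX-7g, the embryos labelled as dormant through DOX in vitro, against D4-act-7g. By limma none of the 9 was called, against 0.956% of all genes (0.706% higher and 0.25% lower), and 3 had an unadjusted p at or under 0.05 (Hspa1a, Hspa1b and Hspb1), against 11% of all genes. Arrays were higher without overlap for those 3, against 19.2% of all genes, and lower without overlap for 5 (Hsph1, Hsp90aa1, Hspe1, Dnajb1 and Bag3), against 30.5%. Means were lower for 6 and higher for 3, against 58% and 42%. The differences ran from -0.57 for Hsph1 to 5.07 for Hspa1a, with a median of -0.13, beside -0.05 over all genes. Without Hspa1a and Hspa1b the median of the other 7 was -0.16. With array weights 3 genes passed (Hspa1a, Hspa1b and Hspb1), and 1 passed without DOX-7g replicate 1 (Hspa1a) or without either Dor-7g array (Hspa1b).

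The last comparison asks whether the day-7 groups, DOX-7g and Dor-7g, differ from each other. Hspa1b alone of the 9 passed and was higher in DOX-7g, against 1.04% of all genes called higher, 0.121% called lower and 1.16% called in either direction. Hspa1a and Hsp90aa1 joined it at an unadjusted p at or under 0.05, against 11.6% of all genes, and the same 3 were higher without overlap, against 15%. None was lower without overlap, against 26.7%, and means were higher for 7 and lower for 2, against 37.1% and 62.9%. The median difference was 0.25, beside -0.11 over all genes. Without DOX-7g replicate 1 Hspa1a was called in place of Hspa1b, without DOX-7g replicate 2 none of the 9 was called, and 2 were called without Dor-7g replicate 1 (Hspa1b and Hspa8).

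**Figure D3:**
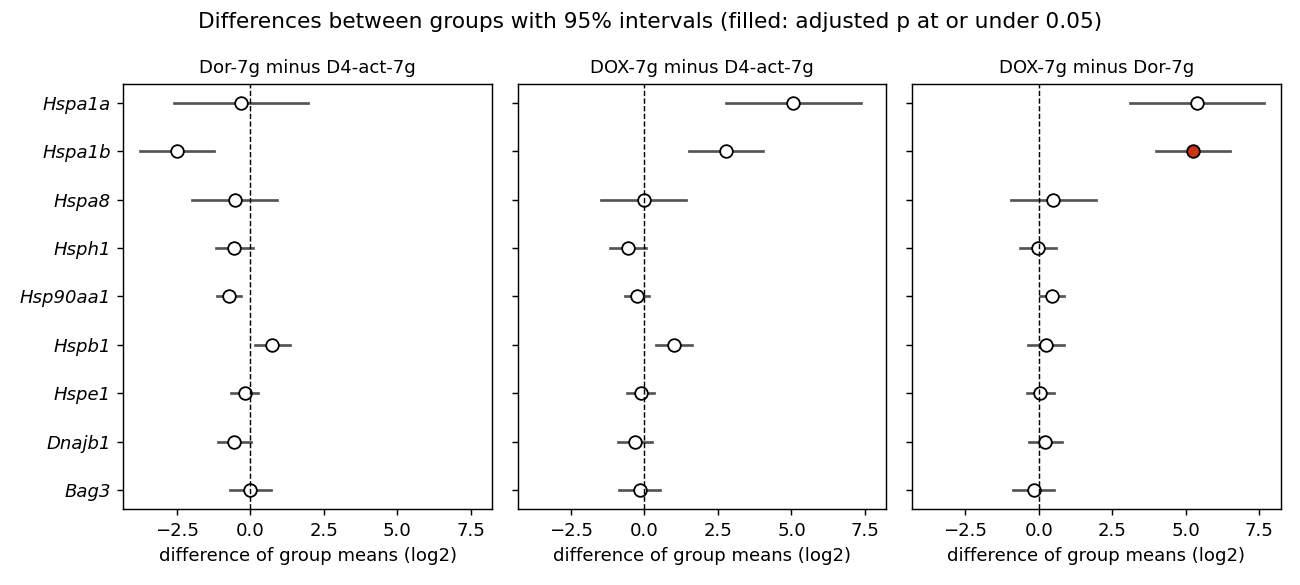
Differences of group means (horizontal axis, log2) for the 9 heat shock genes in the 3 comparisons; points are limma estimates, lines their 95% intervals, and a filled point marks an adjusted p at or under 0.05. The only filled point is Hspa1b in DOX-7g minus Dor-7g, at 5.26, while Hspe1 and Bag3 lie near 0 in all 3 panels.

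The rest of the heat shock and folding machinery was read from lists of named genes. Of 7 other heat shock factor genes and partners 3 were tested and none passed in any comparison. Hsbp1, which binds and restrains trimeric Hsf1, was at 12.91 and 12.77 in D4-act-7g, at 12.96 and 12.82 in Dor-7g, and at 12.88 and 12.94 in DOX-7g, so all 3 groups overlapped. Hsf2bp, named for binding Hsf2, was at 6.71 and 6.75, 6.69 and 6.97, and 7.41 and 7.42, a difference of 0.68 ± 0.18 in DOX-7g against D4-act-7g (SE; limma, adjusted p = 0.225). None of the 8 tested relatives of Hsp70 passed in any comparison or had an unadjusted p at or under 0.05, and their medians were 0.08 in Dor-7g and -0.22 in DOX-7g against D4-act-7g. The first turned to -0.060 without Dor-7g replicate 1 and to -0.050 with arrays centred, and the second was -0.091 without DOX-7g replicate 2.

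Of 33 tested J-domain genes 1 passed, in DOX-7g against Dor-7g, where 1.16% of all genes passed, so the count is near that of all genes. Dnajb14, a membrane J-protein of the endoplasmic reticulum, stood at 7.15 and 7.04 in D4-act-7g, at 6.02 and 6.76 in Dor-7g, and at 8.83 and 8.85 in DOX-7g, with the 3 groups apart. It was higher in DOX-7g than in Dor-7g by 2.45 ± 0.27 (SE; limma, adjusted p = 0.0174). From D4-act-7g the difference was 1.74 ± 0.27 (adjusted p = 0.0662). A fit of only the 2 groups compared ended the call against Dor-7g (limma, adjusted p = 0.0702). Leaving out either D4-act-7g array gave that same result and adds nothing to it. Without DOX-7g replicate 1 or 2 the call was lost too, and a second, dim probeset was at 0.03. The lowest adjusted p of the list in Dor-7g against D4-act-7g was that of Dnaja2, a cytosolic J-protein (-1.27 ± 0.26; adjusted p = 0.116). With 1 array left out, the list medians of -0.15 in Dor-7g and -0.08 in DOX-7g against D4-act-7g ranged from -0.22 to -0.075 and from -0.16 to -0.025.

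Hsp90 cochaperones and chaperonins had medians below 0 in Dor-7g, whose size depended on single arrays, with 1 gene past the threshold. Of 15 tested chaperonin and prefoldin genes, Cct6a, a subunit of the cytosolic chaperonin TRiC, fell by 1.97 ± 0.19 in Dor-7g against D4-act-7g (SE; limma, adjusted p = 0.0147). It was at 8.62 and 8.54 in D4-act-7g, at 6.57 and 6.65 in Dor-7g, and at 7.89 and 7.55 in DOX-7g. Its other probeset was at -0.88, and leaving out D4-act-7g replicate 1 or 2 ended the call (adjusted p = 0.159 and 0.136), as did the mean over both probesets (-1.42, adjusted p = 0.0639). Arrays of 10 of the 15 genes were lower in Dor-7g without overlap, against 21.5% of all genes, and the list's median was -0.55, beside -0.12 in DOX-7g. The Dor-7g median was -0.22 without Dor-7g replicate 1 and -0.85 without Dor-7g replicate 2. Hspd1, the Hsp60 that works with Hspe1, was at 6.12 and 5.74 in D4-act-7g, at 5.03 and 5.51 in Dor-7g, and at 4.93 and 5.03 in DOX-7g (-0.95 ± 0.24 in DOX-7g; adjusted p = 0.206).

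Of 16 tested genes of the Hsp90 machinery none passed in any comparison, and 9 were lower in Dor-7g without overlap, against 21.5% of all genes, with 7 at an unadjusted p at or under 0.05, against 14.3%. The cochaperone Stip1, which joins Hsp70 to Hsp90, was at 7.05 and 6.79 in D4-act-7g, at 5.47 and 5.67 in Dor-7g, and at 6.02 and 6.23 in DOX-7g. Its difference in Dor-7g was -1.35 ± 0.20 (SE; limma, adjusted p = 0.0515). Ahsa1, the activator of the Hsp90 ATPase, had the same order of groups, at 10.93 and 10.90, 9.92 and 10.11, and 10.39 and 10.30 (-0.90 ± 0.17 in Dor-7g; adjusted p = 0.0997). That order, D4-act-7g, DOX-7g, Dor-7g, is the one seen for Hsp90aa1. The list's medians were -0.54 in Dor-7g and -0.25 in DOX-7g, and the former was -0.29 without Dor-7g replicate 1 and -0.35 without D4-act-7g replicate 1.

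Among 8 tested small heat shock protein genes none passed. Cryab, the alpha-B crystallin, had the smallest p of the list in both comparisons with Dor-7g. It was at 11.39 and 11.71 in D4-act-7g, at 7.77 and 10.15 in Dor-7g, and at 11.83 and 12.19 in DOX-7g. Its order of groups was that of Hspa1b, with differences of -2.59 ± 0.73 in Dor-7g against D4-act-7g and 3.05 ± 0.73 in DOX-7g against Dor-7g (SE; limma, adjusted p = 0.206 and 0.2). Without Dor-7g replicate 2 these were -3.78 and 4.24 and passed (adjusted p = 0.00355 and 0.00265), and without Dor-7g replicate 1 they were -1.41 (adjusted p = 0.0816) and 1.86 (adjusted p = 0.0498). None of 10 Hsp70 cofactors and none of 15 chaperones of the endoplasmic reticulum passed in any comparison. With 1 array left out, the cofactor median ranged from -0.086 to 0.099 in Dor-7g (-0.04 with all arrays) and from -0.17 to -0.076 in DOX-7g (-0.08). That of the endoplasmic reticulum list ranged from -0.31 to -0.030 in Dor-7g (-0.16) and from -0.52 to -0.048 in DOX-7g (-0.28).

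Of 22 tested immediate-early and acute stress genes, Btg2, an antiproliferative gene, was the 1 past the threshold, in DOX-7g against D4-act-7g (2.22 ± 0.30; limma, adjusted p = 0.04). It was at 3.56 and 4.05 in D4-act-7g, at 3.90 and 4.54 in Dor-7g, and at 6.16 and 5.88 in DOX-7g. Btg2 was below the array median on all 4 D4-act-7g and Dor-7g arrays and was tested only through the DOX-7g arrays where it is high, so its call is given as a description. The call was lost when either D4-act-7g or either DOX-7g array was left out (adjusted p = 0.157 to 0.254), after a second quantile normalization (0.081) and after median centring (0.0808). Gadd45b was at 9.52 and 9.54 in D4-act-7g, at 5.91 and 7.48 in Dor-7g, and at 9.51 and 9.98 in DOX-7g (-2.83 ± 0.51 in Dor-7g; adjusted p = 0.0843). Fos, a fast-responding transcription factor, was at 5.29 and 5.12, 6.15 and 6.08, and 5.10 and 5.42 (0.91 ± 0.19 in Dor-7g; adjusted p = 0.124). The list's median was 0.34 in Dor-7g against D4-act-7g, and 0.21 with arrays centred. There 10 of 22 were higher without overlap, against 24.3% of all genes, and 3 lower, against 21.5%. In DOX-7g against D4-act-7g the median was 0.05, and its sign turned without D4-act-7g replicate 2 (-0.016) and without DOX-7g replicate 2 (-0.023). Between DOX-7g and Dor-7g it was -0.29, beside -0.11 over all genes. In that comparison 10 of 22 were lower without overlap, against 26.7%, and 4 higher, against 15%. An unadjusted p at or under 0.05 (limma) was reached by 9, against 11.6%, and none passed.

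**Figure D4:**
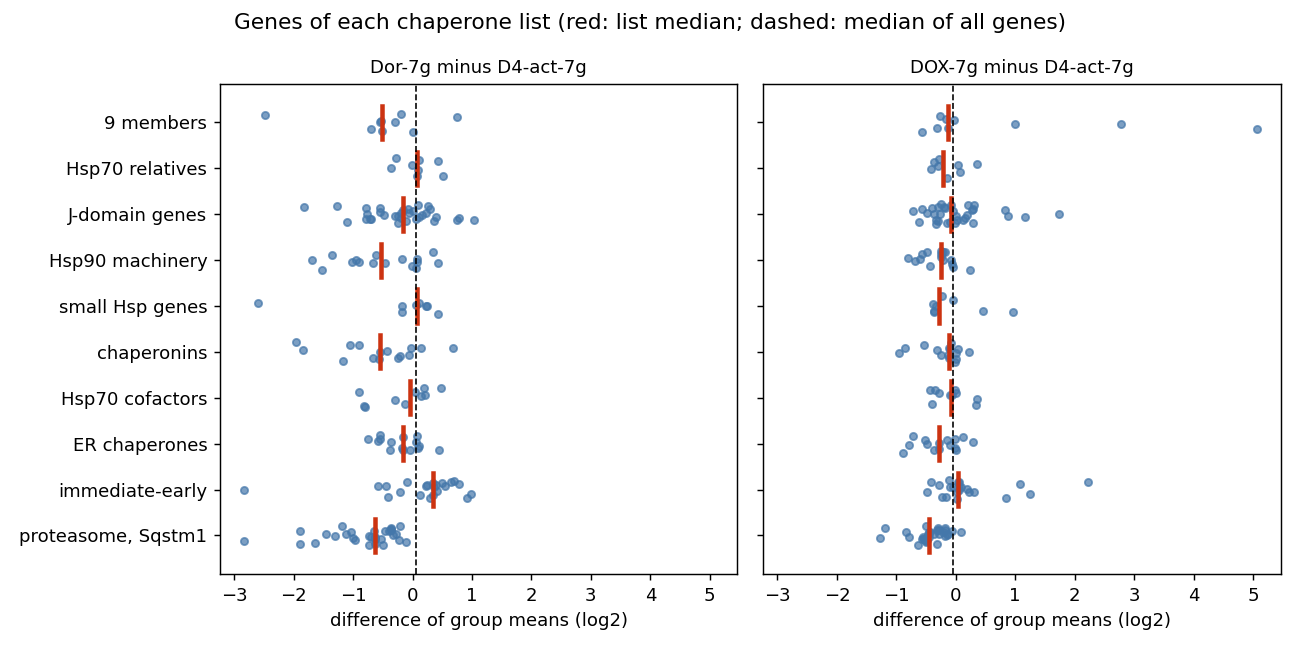
Differences from D4-act-7g (horizontal axis, log2) of each tested gene of the 9 measured heat shock genes and 9 related lists, in Dor-7g (left) and DOX-7g (right), with points spread vertically for legibility. The red bars are list medians and the dashed line the median of all genes (0.06 and -0.05); the proteasome list lies wholly below 0 on the left, and the far right points on the right are Hspa1b and Hspa1a at 2.77 and 5.07.

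The genes whose pattern over the 6 arrays was most like that of Hspa1b were Cox5b (Pearson's r = 0.993), Serpinb6a (0.992), Zfp981 (0.991), Eif1a (0.989) and Avpi1 (0.987), of 14020 genes ranked. Without the 2 arrays farthest from the median of Hspa1b, DOX-7g replicate 2 and Dor-7g replicate 1, these were 0.995, 0.980, 0.983, 0.983 and 0.959. The 5 genes were picked for the highest r on these same arrays, so neither set of values is a test. The arrays fall into 3 groups, so r describes mainly the order of the groups. The size of the change differed: DOX-7g was above Dor-7g by 0.26 for Cox5b, a respiratory chain subunit, and by 3.43 for the zinc finger gene Zfp981, against 5.26 for Hspa1b. Of the other heat shock genes Hspa1a ranked nearest, with r = 0.867 at place 252 (0.918 without those 2 arrays). The order of the rest changed without them: Hsp90aa1 went from 0.602 to 0.453, Hspa8 from 0.158 to 0.721, Bag3 from -0.420 to 0.268 and Hsph1 from -0.092 to -0.284.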

How the data were processed

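The deposited table holds 1 log2 value per probeset for 41345 probesets on 6 arrays. Per the submitters' processing notes, the authors used Partek 6.6 and RMA to make these log2 values, with no settings given and no build named in what was read here. Array medians were 4.62 to 4.87. Detection calls and scanner files were not used, and a probeset under its array's median is called dim. Per the labels' protocols, heating 10 blastocysts in water gave the RNA of each array, and the number of arrays limits the precision.

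Probesets with exactly 1 symbol (23521) were named through the platform annotation, updated by Entrez identifier from RefSeq. They were kept where at least 2 of 6 arrays reached the array median, and the brightest stood for its gene, which left 14020 genes. limma 3.58.1 in R 4.3.3 was fitted to all 6 arrays with group means as coefficients and eBayes at its defaults; the replicate number was no term of it. p-values were adjusted by Benjamini-Hochberg over all genes within each comparison. Across genes, the deviations of same-numbered arrays showed no pairing (correlations of -0.02, -0.01 and -0.14), which does not exclude it. The fit was tested on simulated data.

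All members are named; of each list, genes past the threshold (up to 4 per comparison) or, where none passed, from the 2 with the smallest p; and the 5 genes with the highest r to Hspa1b, leaving out predicted genes and small RNAs. The members and lists were chosen with earlier results of these data known.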

Additional observations from a re-analysis of the deposited data

Results flagged for a closer look

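The change of Hspa1b from day 4 differed between the day-7 groups: DOX-7g lay 5.26 log2 units above Dor-7g (limma, adjusted p = 0.011), with values of 11.21 and 11.995 against 5.71 and 6.98. The direction held in both arrays of each group, and the call was lost when either DOX-7g array was left out, as given above.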

How the results depend on the processing

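Each of 17 alternatives was run for all 9 genes and 3 comparisons. The call for Hspa1b in DOX-7g against Dor-7g had differences of 4.62 to 5.89 and adjusted p-values of 0.00238 to 0.0802 over them. Of all genes, the number called in Dor-7g against D4-act-7g, 138 as reported, was 79 with array weights, 86 with only the 2 groups compared and 82 with the replicate block, and 11 to 1172 with 1 array left out. The genes called among the 9 went from 0 to 1 with the replicate block (Hspa1b) and were 0 to 1 with 1 array left out. Their median was -0.42 after a second quantile normalization, -0.65 with arrays centred on their medians, -0.37 with the mean over probesets, and -0.52 to -0.15 with 1 array left out. In DOX-7g against D4-act-7g the 134 genes became 68 with the filter at all 6 arrays, 461 with array weights and 296 with only the 2 groups compared, and 43 to 296 with 1 array left out. Among the 9 genes 3 were called with array weights, 1 with only the 2 groups compared, 1 with the replicate block and 0 to 1 with 1 array left out, with a median of -0.20 to -0.089. In DOX-7g against Dor-7g the 163 genes became 81, 104 and 86 under the same 3 settings and 67 to 880 with 1 array left out, with 0 to 2 of the 9 called. The median was 0.38 with arrays centred and 0.11 to 0.43 with 1 array left out.

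Same-numbered arrays showed no pairing across genes, as given with the processing, but a pairing was not excluded. Hspa1b was higher on replicate 2 than on replicate 1 in each group. With the replicate block Hspa1b passed in Dor-7g against D4-act-7g (-2.48, limma, adjusted p = 0.0331) and in DOX-7g against D4-act-7g (2.77, adjusted p = 0.0212), and Btg2 did not (2.22, adjusted p = 0.0752).

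Signs turned only for differences that had not passed. In Dor-7g against D4-act-7g, Bag3 was at -0.12 with arrays centred. With 1 array left out there, Bag3 ranged from -0.37 to 0.40, Hspa1a from -0.79 to 0.18 and Hspa8 from -1.48 to 0.44. For DOX-7g against D4-act-7g, Hspa8 ranged from -0.11 to 0.050. Between DOX-7g and Dor-7g, a second quantile normalization put Hsph1 at 0.061 and Hspe1 at -0.090, and centring put Hsph1 at 0.098. With 1 array left out, Hspa8 ranged from -0.47 to 1.45, Hsph1 from -0.14 to 0.073, Hspb1 from -0.040 to 0.53, Hspe1 from -0.087 to 0.21 and Bag3 from -0.56 to 0.21. The cause was not tested. With 2 arrays a group, a lone remaining array is assumed to vary like the other groups, and dim probesets near the array median carry the least information.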

Other observations

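The proteasome genes, which degrade the proteins that chaperones cannot refold, were lower in Dor-7g as a list with none of its genes called. The list held 30 tested proteasome subunits and the autophagy receptor Sqstm1. All 31 genes had Dor-7g arrays below both D4-act-7g arrays without overlap, against 21.5% of all genes, and 17 of 31 had an unadjusted p at or under 0.05, against 14.3%, while none passed limma's adjusted threshold. In DOX-7g, 26 of 31 lay below D4-act-7g without overlap, against 30.5%, with 7 at an unadjusted p at or under 0.05, against 11%. List medians were -0.64 and -0.44, beside 0.06 and -0.05 over all genes, and ranged from -0.77 to -0.53 and from -0.48 to -0.35 over the alternatives. Psmb3, a subunit of the catalytic core, stood at 8.19 and 7.84 in D4-act-7g, at 6.37 and 6.38 in Dor-7g, and at 6.39 and 7.11 in DOX-7g (-1.64 ± 0.28 in Dor-7g; limma, adjusted p = 0.0798).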
